A study of Mus musculus with 2 samples.

Results

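The S100 genes encode small calcium-binding proteins, and 9 of them were followed here in the cells of callus, the mix of cartilage, stroma and marrow-derived cells that bridges a healing fracture, in mice. The members were S100a1, S100a4, S100a6, S100a8, S100a9, S100a10, S100a11, S100a13 and S100b, found by symbol among the 32285 genes of both count tables, which hold 17 S100 genes in all. Callus was digested from femoral fractures of wild-type mice, which the study's methods give as adult male C57BL/6J animals, and single cells were captured with 10x Genomics 3′ chemistry. The study sampled 2 times after fracture and pooled several mice at each. The labels of the 2 libraries, MGJ and MGJ2, state the same tissue, genotype and fracture model and give neither library a time, and the barcodes do not tell the mice apart. Each library is therefore described on its own, the values are set side by side, and no difference between the libraries is read as an effect of time.

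An S100 protein usually works as a dimer. Calcium binding exposes a hydrophobic face that grips a target protein, so that most members act as calcium-triggered adaptors of annexins, myosin or receptors, and several are also released from cells as danger signals. In cartilage S100a1 and S100b are known products of chondrocytes, whereas S100a8 and S100a9, which pair as calprotectin, are among the most abundant proteins of the neutrophil cytosol.

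Of the 9 members, 8 lie on chromosome 3 between positions 90511034 and 93564643 of GRCm38, and S100b lies on chromosome 10 (76253853 to 76261159, plus strand; GENCODE M21). S100a1 and S100a13 start head to head with 42 bases between their annotated ends. S100a4 and S100a6 are 6.84 kb apart, S100a8 and S100a9 22.6 kb, and S100a11 and S100a10 28.8 kb. RefSeq promoter windows on GRCm38, taken as the 250 bases before each start, were matched for 8 of the 9 members. The 4 stretches below are shown because they precede genes whose UMIs lay mostly in 1 class, the calprotectin pair and S100b, and because 1 of them is the whole gap that S100a1 and S100a13 share. Each was limited to the bases that no GENCODE M21 exon covers, and capitals mark the matches to the motifs named below.
S100a8, chr3:90668821-90668977, plus strand: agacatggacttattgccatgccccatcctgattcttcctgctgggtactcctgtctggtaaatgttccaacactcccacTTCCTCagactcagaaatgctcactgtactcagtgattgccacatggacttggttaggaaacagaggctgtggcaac
S100a9, chr3:90695722-90695971, minus strand: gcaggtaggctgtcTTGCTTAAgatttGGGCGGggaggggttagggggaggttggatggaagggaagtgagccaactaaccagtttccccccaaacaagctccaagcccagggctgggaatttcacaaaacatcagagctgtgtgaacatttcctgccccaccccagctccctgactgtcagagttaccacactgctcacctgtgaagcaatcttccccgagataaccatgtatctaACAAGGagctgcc
Gap between S100a1 and S100a13, chr3:90514393-90514434, plus strand: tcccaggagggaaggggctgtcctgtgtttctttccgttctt
S100b, chr10:76253586-76253835, plus strand: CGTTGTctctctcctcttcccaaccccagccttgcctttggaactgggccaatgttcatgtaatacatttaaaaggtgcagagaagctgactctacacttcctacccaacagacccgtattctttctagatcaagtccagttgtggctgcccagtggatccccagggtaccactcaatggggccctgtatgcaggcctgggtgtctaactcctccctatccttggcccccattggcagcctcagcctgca

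The motifs searched on both strands were the C/EBP-type element TTNNGCAA, the PU.1-type core GAGGAA, the SOX-type core ACAANG, the GC box GGGCGG and the TATA box TATAAA. TTNNGCAA was found in the S100a9 window alone among the 8 members and in 9.56% of 32851 promoter windows of the same length. GAGGAA was found in the windows of S100a8 and S100a11 and in 23.3% of all windows, and in the S100a8 stretch above it appears on the opposite strand. ACAANG was found for S100a8, S100a9 and S100b and in 36.3% of all windows, and GGGCGG for S100a9 and S100a11 and in 32.7%. TATAAA was found for S100a4 and S100a8 and in 12.4%. In the S100a8 window the TATAAA, the ACAANG and 1 of the 2 GAGGAA matches fell on bases annotated as S100a8 exon, which are not shown. These matches are letters within a window and were not tied to binding.

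MGJ held 14295 barcodes and 135304426 UMIs (unique molecular identifiers, 1 count per captured RNA molecule), and MGJ2 held 8009 barcodes and 61130834 UMIs. Barcodes with at least 200 genes and at most 20% mitochondrial UMIs that were not called as doublets were kept, 13320 cells in MGJ and 7584 in MGJ2. Clusters were named from marker lists that hold no S100 gene, which gave 16 classes of at least 50 cells in MGJ and 12 in MGJ2. Of 29 clusters 16 held over 90% of their cells from 1 library, so a class that stands out in 1 library may rest on that library. An unnamed low-UMI cluster led by Ccl3, Ccl4 and Tnf held 2454 cells (18.4%) of MGJ, with neutrophil markers as its best list. No class was named from the osteoblast or Schwann cell markers, and 13 of the kept barcodes occurred in both libraries. Levels are UMIs per 1000000 UMIs of a class (CPM), with exact Poisson 95% intervals. All intervals cover counting error only, since each library is a single sample, and no p-value was computed.

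**Figure D1:**
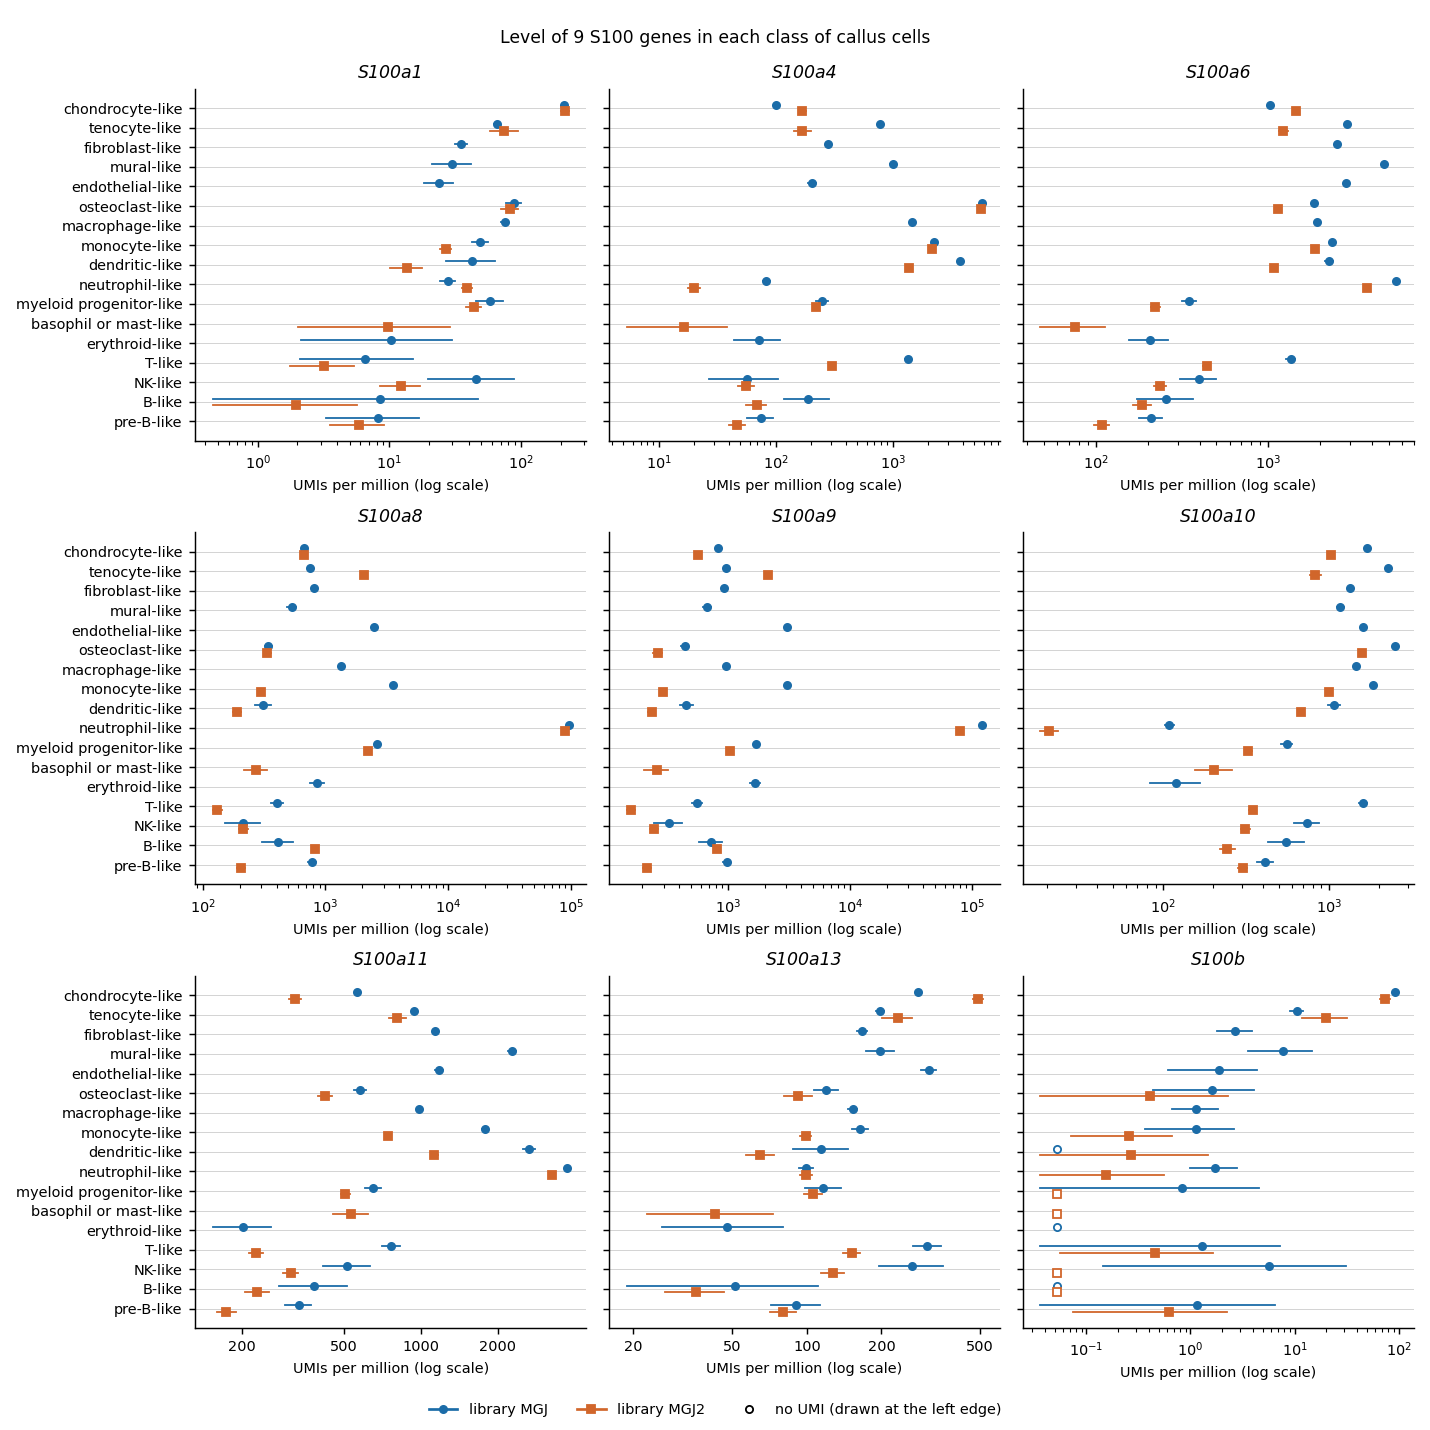
Level of the 9 S100 genes in each named class of at least 50 cells. Each panel is 1 gene, the x axis is CPM on a log scale, circles are library MGJ, squares are library MGJ2, lines are exact Poisson 95% intervals, and open symbols at the left edge mark classes with no UMI. S100a1 and S100b peaked in chondrocyte-like cells, S100a4 and S100a10 in osteoclast-like cells, and S100a6, S100a8, S100a9 and S100a11 in neutrophil-like cells in both libraries.

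The cartilage cells of the callus had at least 2-fold more S100a1 and S100b than the other cells in both libraries, and at least 2-fold more S100a13 in MGJ2. The chondrocyte-like class, which held the Col2a1-rich cells, counted 2843 cells in MGJ and 139 in MGJ2. Over all other cells, 2 of the 9 members were at least 2-fold higher and 5 at least 2-fold lower in MGJ, against 14% and 26.3% of the 14737 genes with at least 50 UMIs. In MGJ2, 3 members were higher and 4 lower, against 19.8% and 32.9% of 13067 genes. The median log2 ratio of the members was -1.43 in MGJ and -0.22 in MGJ2, and that of all genes was -0.22 and -0.36. All 9 members passed the minimum of 50 UMIs in each of these comparisons and in those that follow.

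S100b, best known from glial cells and also made by chondrocytes, was found mostly in the chondrocyte-like class. Its level in chondrocyte-like cells was 92.8 CPM (95% interval 90.4 to 95.3) in MGJ and 73.9 CPM (65.9 to 82.7) in MGJ2. All other cells together had 3.83 and 0.593 CPM, which gave ratios of 24.2 (21.4 to 27.5) and 125 (86.5 to 186). Chondrocyte-like cells held 95.4% of all S100b UMIs of MGJ and 90.5% of those of MGJ2. The next class in both libraries was the tenocyte-like class, with 10.5 and 20.1 CPM, a class that also had 3397 and 4886 CPM of Col2a1. Below it the order could not be read: 14 of 15 neighbouring pairs of classes in MGJ and 9 of 11 in MGJ2 did not differ beyond counting error. Since S100b also marks Schwann cells, the Schwann cell markers Ncmap, Mbp, Sox10 and Foxd3 were read in the same cells. In chondrocyte-like cells Ncmap stood at 102 CPM in MGJ and 72.0 in MGJ2, whereas Mbp stood at 4.11 and 5.56 CPM and Sox10 at 0.756 CPM and at no UMI, and Foxd3 had no UMI in either library, which allows no more than 3 counts.

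S100a1, an S100 protein that is abundant in heart and skeletal muscle and is also made by cartilage, was less confined. Chondrocyte-like cells had 212 CPM (208 to 215) in MGJ and 216 CPM (202 to 231) in MGJ2. Osteoclast-like cells came next in both, with 88.0 and 82.2 CPM, and the lowest levels were 6.49 CPM in T-like cells of MGJ and 1.95 CPM in B-like cells of MGJ2. In that order 12 of 15 neighbouring pairs of classes in MGJ and 7 of 11 in MGJ2 did not differ beyond counting error. The ratio of chondrocyte-like to all other cells was 4.19 (4.03 to 4.34) in MGJ and 7.40 (6.81 to 8.04) in MGJ2. The class held 78.3% of the S100a1 UMIs of MGJ and 36.2% of those of MGJ2. The median chondrocyte-like cell held 4 S100a1 UMIs in MGJ and 5 in MGJ2. After each cell was thinned to 2000 UMIs, S100a1 was detected in 30.9% of the chondrocyte-like cells with S100b and in 29.9% of those without it in MGJ. The same shares were 69.2% and 27.0% in MGJ2, where only 13 thinned cells held S100b.

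S100a13, which binds copper and carries FGF1 and interleukin-1 alpha out of the cell, had chondrocyte-like cells among its leading classes in both libraries. In MGJ endothelial-like cells (310.3 CPM), T-like cells (305 CPM) and chondrocyte-like cells (282 CPM) led, and neighbours in that order did not differ beyond counting error. In MGJ2 chondrocyte-like cells led the reported classes with 489 CPM (468 to 511), ahead of tenocyte-like cells with 232 CPM. MGJ2 held only 49 endothelial-like cells, too few to be reported, so the top class could not be compared between the libraries. The chondrocyte-like ratio was 1.79 (1.75 to 1.83) in MGJ, short of 2-fold, and 4.74 (4.51 to 4.99) in MGJ2. S100a13 had the narrowest span of the 9 genes, 6.48-fold from the highest to the lowest class in MGJ and 13.7-fold in MGJ2.

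Within the chondrocyte-like cells, the hypertrophic-like cells were the sub-clusters that scored highest for Col10a1, Ihh, Panx3, Pth1r and Alpl, 1017 against 1826 other cells in MGJ and 85 against 54 in MGJ2. Their Col10a1 level was 16032 against 802 CPM in MGJ and 32171 against 2099.7 CPM in MGJ2. S100a13 was higher in hypertrophic-like cells in both libraries, with 457 against 176 CPM in MGJ (ratio 2.59, 2.51 to 2.67) and 670.4 against 196 CPM in MGJ2 (ratio 3.42, 3.03 to 3.87). This was the 1 member past 2-fold upward in MGJ, where 5.23% of 12650 genes were higher and 7.36% lower. S100a1 had ratios of 1.52 and 1.33 and S100a6 of 1.67 and 1.85, all short of 2-fold. S100b went the other way, with 68.6 against 107 CPM in MGJ (ratio 0.638) and 52.8 against 108 CPM in MGJ2 (ratio 0.489, 0.387 to 0.616). The MGJ2 ratio stayed past 2-fold in 10 of 16 alternatives, which ran from 0.335 to 0.759. Some of these could not change it: naming the low-UMI cluster, leaving out unnamed cells, and keeping set-aside sub-clusters, since none was set aside.

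In MGJ2, 3 members were past 2-fold upward and 1, S100b, downward, against 7.72% and 6.28% of 6619 genes, but S100a8 and S100a9 were among them because of a single cell. Their ratios were 10.7 and 7.55, and 1 of the 85 hypertrophic-like cells held 2393 of the 2597 S100a8 UMIs (92.1%) and 1910 of the 2171 S100a9 UMIs (88.0%). Without the 5 cells richest in each gene on either side, S100a8 stood at 56.3 against 72.6 CPM and S100a9 at 84.3 against 79.7 CPM. With no cell left out, the hypertrophic-like cells had 174 against 22.1 CPM of Ngp and 521 against 8.85 CPM of Camp, both neutrophil granule genes.

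**Figure D2:**
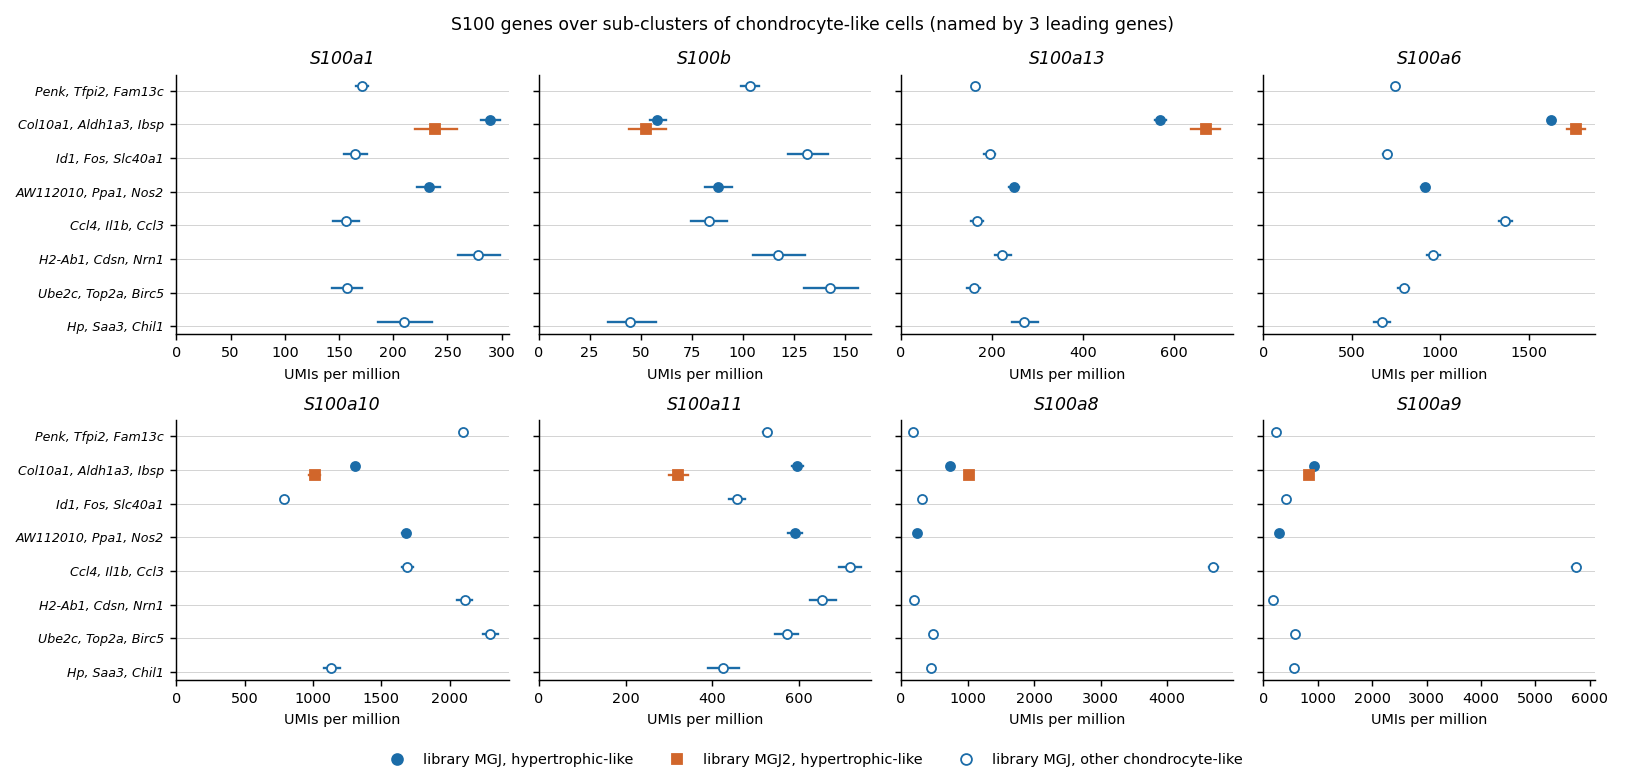
Level of 8 S100 genes in the sub-clusters of chondrocyte-like cells with at least 50 cells in a library, each named by its 3 leading genes. The x axis is CPM, circles are library MGJ, squares are library MGJ2, filled symbols are hypertrophic-like sub-clusters, open symbols are other sub-clusters, and lines are exact Poisson 95% intervals. S100a13 and S100a6 were highest in the sub-cluster led by Col10a1, where S100b was low, and S100a8 and S100a9 stood far out in the sub-cluster led by Ccl4, Il1b and Ccl3.

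Over the 8 sub-clusters of MGJ, the sub-cluster led by Col10a1, Aldh1a3 and Ibsp (714 cells) had the highest S100a13, S100a6 and S100a1, with 570.1, 1627 and 289 CPM. The other hypertrophic-like sub-cluster, led by AW112010, Ppa1 and Nos2 (303 cells), had 248 CPM of S100a13 and 914 CPM of S100a6. Its Col10a1 level of 2292 CPM was also far below the 23504 CPM of the first. It passed the minimum score of 1 for hypertrophic markers narrowly, at 1.05. The sub-cluster led by Id1 and Fos, counted among the other cells, fell just short at 0.931. S100b ran from 44.5 CPM in the sub-cluster led by the acute-phase genes Hp and Saa3 to 143 CPM in the one led by the cell-cycle genes Ube2c and Top2a. S100a10 ran from 789.8 CPM in the sub-cluster led by Id1 and Fos to 2298 CPM in the cell-cycle one. S100a4 stayed between 35.5 and 212 CPM. In MGJ2 only the sub-cluster led by Col10a1 reached 50 cells, and it had 670.4 CPM of S100a13, 1763 CPM of S100a6 and 52.8 CPM of S100b.

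S100a10 and S100a11 are partners of annexins, S100a10 of annexin A2 at the inner face of the plasma membrane and S100a11 of annexin A1. They had nearly opposite places for neutrophils. S100a10 was highest in osteoclast-like cells, with 2490.4 CPM (2429 to 2553) in MGJ and 1576 CPM (1526 to 1626) in MGJ2, and lowest in neutrophil-like cells, with 109 CPM (102 to 116) and 20.6 CPM (18.2 to 23.2). Tenocyte-like cells (2272 CPM), monocyte-like cells (1852 CPM) and chondrocyte-like cells (1696 CPM) followed in MGJ, and chondrocyte-like (1025 CPM), monocyte-like (1003 CPM) and tenocyte-like cells (828 CPM) in MGJ2. The chondrocyte-like ratio of S100a10 was 1.21 and 1.90, short of 2-fold. S100a11 was highest in neutrophil-like cells, with 3739 CPM in MGJ and 3249 CPM in MGJ2, followed by dendritic-like cells with 2649 and 1128 CPM. Chondrocyte-like cells had 565 and 322 CPM of S100a11, ratios of 0.371 and 0.264. Reads of S100a11 could be shared with its processed pseudogene S100a11-ps on chromosome 12, so its level is less certain than the others.

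S100a4, which binds non-muscle myosin and is used as a marker of motile mesenchymal and myeloid cells, was highest in osteoclast-like cells. Osteoclast-like cells had 5776 CPM (5682 to 5871) in MGJ and 5721 CPM (5626 to 5817) in MGJ2, and S100a4 was among the leading genes of the osteoclast-like cluster. Dendritic-like cells had 3764 and 1392 CPM, and monocyte-like cells 2255 and 2152 CPM. Macrophage-like cells, of which MGJ held 1699 and MGJ2 only 28, had 1458 CPM in MGJ, close to the 1364 CPM of its T-like cells, and mural-like (1012 CPM) and tenocyte-like cells (774 CPM) followed. The ratio of S100a4 in macrophage-like over all other cells of MGJ was 3.22 (3.17 to 3.28), the only member higher by 2-fold there. S100a8, S100a9 and S100b were lower, so that 1 member was higher and 3 lower against 12.7% and 35.7% of 14737 genes. The chondrocyte-like ratio of S100a4 was 0.104 and 0.162, and the neutrophil-like ratio was 0.138 and 0.0160. S100a4 covered the widest range of the members outside the calprotectin pair and S100b, 102-fold from osteoclast-like to NK-like cells in MGJ and 349-fold from osteoclast-like to basophil or mast-like cells in MGJ2.

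S100a6, or calcyclin, which binds the ubiquitin-ligase adaptor CacyBP, was shared by neutrophils and stroma. Neutrophil-like cells had 5494 CPM (5447 to 5542) in MGJ and 3755 CPM (3722 to 3789) in MGJ2. Mural-like cells (4694 CPM), tenocyte-like cells (2875 CPM), endothelial-like cells (2826 CPM) and fibroblast-like cells (2517 CPM) followed in MGJ, and monocyte-like cells (1876 CPM) and chondrocyte-like cells (1455 CPM) in MGJ2. The lowest levels were 205 CPM in erythroid-like cells of MGJ and 75.4 CPM in basophil or mast-like cells of MGJ2, whereas T-like cells had 1355 CPM in MGJ and 439.8 CPM in MGJ2. The chondrocyte-like ratio of S100a6 was 0.351 in MGJ and 0.858 in MGJ2.

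**Figure D3:**
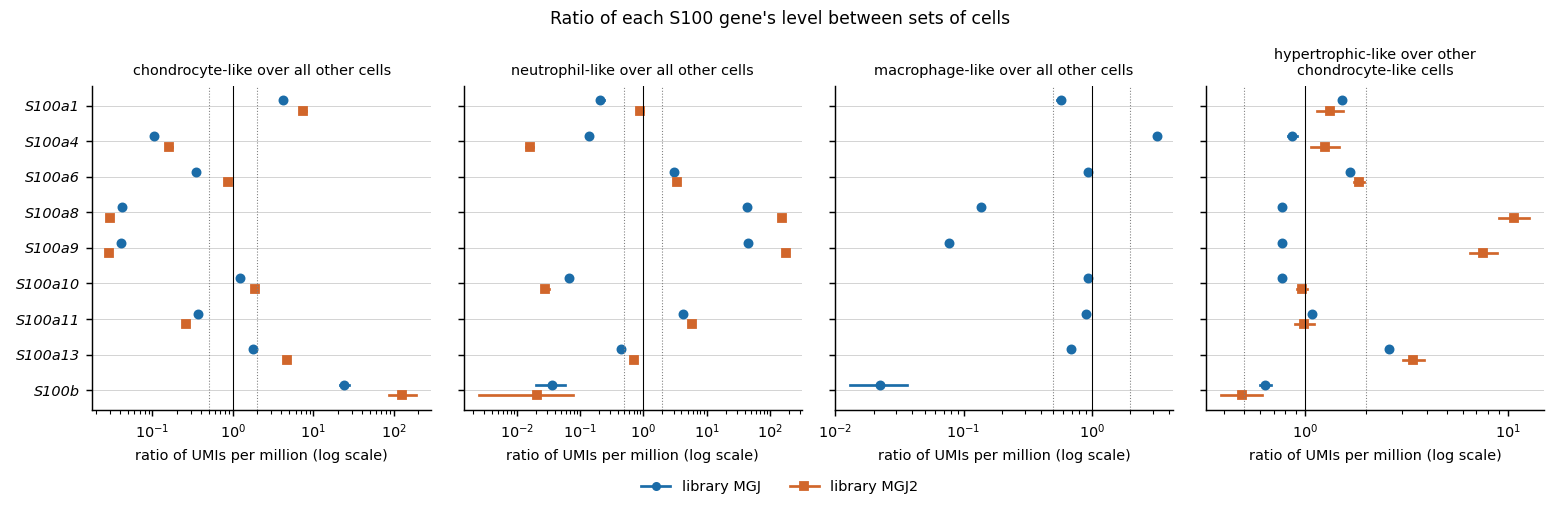
Ratio of each gene's CPM between sets of cells, on a log axis, for chondrocyte-like, neutrophil-like and macrophage-like cells over all other cells and for hypertrophic-like over other chondrocyte-like cells. Circles are library MGJ, squares are library MGJ2, lines are exact 95% intervals of the ratio, the solid line marks 1 and the dotted lines mark 2-fold. S100b and S100a1 lie to the right for chondrocyte-like cells and S100a8, S100a9, S100a11 and S100a6 for neutrophil-like cells in both libraries, whereas the S100a8 and S100a9 points of MGJ2 in the last panel rest on 1 cell.

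The calprotectin pair dominated the neutrophils. S100a8 stood at 95555 CPM (95357 to 95754) in the neutrophil-like cells of MGJ and 90115 CPM (89951 to 90279) in those of MGJ2, and S100a9 at 121872 CPM (121648 to 122096) and 79882 (79728 to 80036). The median neutrophil-like cell held 137 S100a8 UMIs and 195 S100a9 UMIs in MGJ and 73 and 66 in MGJ2. Over all other cells, the ratio of S100a8 was 43.8 (43.6 to 44.0) in MGJ and 156 (154 to 158) in MGJ2, and the ratio of S100a9 was 44.6 (44.4 to 44.8) and 183 (180.0 to 185). The 2613 neutrophil-like cells of MGJ held 76.9% of its S100a8 UMIs and the 2513 of MGJ2 held 97.8%. In MGJ the unnamed low-UMI cluster had 34633 CPM of S100a8 and 47594 CPM of S100a9 and counted among the other cells. With the unnamed cells left out, an alternative chosen after seeing the data, the MGJ ratios were 102 and 121. Over all alternatives the S100a8 ratio ran from 8.81 to 102 in MGJ and from 7.26 to 158 in MGJ2, and that of S100a9 from 8.74 to 121 and from 7.69 to 186.

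In all, 4 members were at least 2-fold higher and 5 lower in neutrophil-like cells of MGJ, against 8.94% and 62.5% of 14737 genes. In MGJ2, 4 were higher and 3 lower, against 8.05% and 52.3% of 13067 genes. The same 4 members, S100a6, S100a8, S100a9 and S100a11, were higher in both libraries. S100a6 had ratios of 3.06 and 3.47 and S100a11 of 4.26 and 5.85. S100a4, S100a10 and S100b were lower in both, with S100a10 at 0.0663 and 0.0281. S100a13 was lower by 2-fold in MGJ alone (0.444 against 0.710), as was S100a1 (0.209 against 0.887), and the difference between the libraries was not tested. The median log2 ratio of the members was -1.17 in MGJ and -0.17 in MGJ2, against -1.63 and -1.07 over all genes.

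The members followed different courses over the neutrophil-like clusters, which were ordered by the summed level of the granule genes Ltf, Camp, Ngp, Cebpe, Chil3 and Lcn2. These genes are made in immature neutrophils and fall with maturation. The cluster led by Fcnb, Camp and Chil3 had 119539 CPM of S100a8 in MGJ and 106081 in MGJ2, and the cluster led by Ltf, Ifitm6 and Ngp had 145960 and 135946. The cluster led by the maturation markers Retnlg, Mmp8 and Cxcr2 kept 122418 and 107931 CPM. The cluster led by Cstdc4, Stfa2l1 and Csta3, which held 1638 of the 2613 neutrophil-like cells of MGJ, had 49613 CPM. The clusters with the fewest granule genes, led by Acod1, Cyp4f18 and Il1r2, had 35459 CPM in 139 cells of MGJ and 21387 CPM in 1531 cells of MGJ2. S100a9 followed the same order of clusters, from 177442 down to 49663 CPM in MGJ and from 118684 to 19199 CPM in MGJ2.

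S100a6 and S100a11 peaked in the cluster led by Retnlg, and S100a8 and S100a9 in the one led by Ltf. S100a6 was lowest in the cluster led by Fcnb, Camp and Chil3, with 799 CPM in MGJ and 219 CPM in MGJ2, and reached 12270 CPM (12082 to 12460) and 11953 CPM (11787 to 12119) in the cluster led by Retnlg, Mmp8 and Cxcr2. S100a11 went from 1789 to 7366 CPM and from 1350.3 to 6887 CPM between the same clusters. In the cluster led by Cstdc4, Stfa2l1 and Csta3 S100a6 and S100a11 stood at 6562 and 3288 CPM. In the clusters led by Acod1, Cyp4f18 and Il1r2 they stood at 5281 and 4816 CPM in MGJ and at 5022 and 4137 CPM in MGJ2. S100a1 had the opposite course: the cluster led by Fcnb, Camp and Chil3 held 77.1 CPM (66.0 to 89.7) and 88.1 CPM (80.1 to 96.7), and the cluster led by Retnlg, Mmp8 and Cxcr2 held 7.54 and 1.20 CPM. S100a13 fell from 168 to 87.4 CPM and from 141 to 58.6 CPM between those clusters. Median UMIs per cell moved with these levels, from 11724 in the cluster led by Fcnb to 1468 in the one led by Acod1 in MGJ and from 22475 to 2194 in MGJ2, and the part of depth in these courses was not tested.

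**Figure D4:**
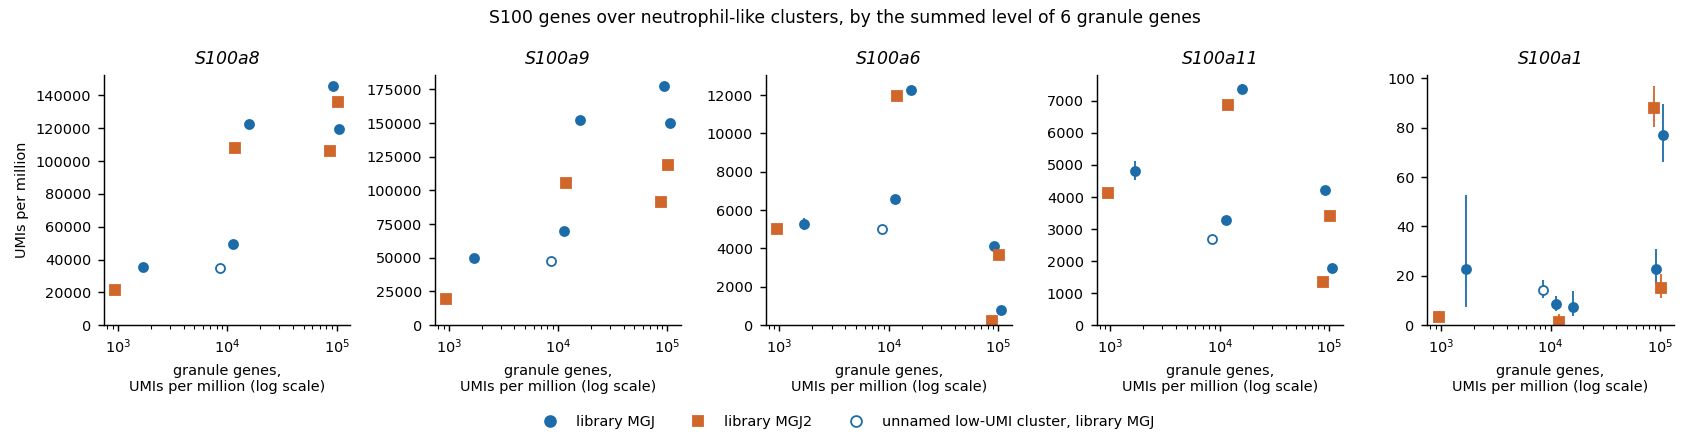
Level of 5 S100 genes in each neutrophil-like cluster against the summed level of 6 granule genes. Both axes are in CPM, the x axis on a log scale, circles are library MGJ, squares are library MGJ2, the open circle is the unnamed low-UMI cluster of MGJ, and error bars are exact Poisson 95% intervals. S100a8 and S100a9 were high in every granule-rich cluster, S100a6 and S100a11 peaked at 11904 to 15972 CPM of granule genes, and S100a1 was high only where S100a6 was lowest.

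In droplet data, RNA released from broken cells enters all droplets, and the most abundant transcripts of a tissue contribute most to it. They were therefore read in the other classes beside 11 neutrophil genes (Retnlg, Csf3r, Cxcr2, Il1r2, Mmp8, Ngp, Camp, Ltf, Ly6g, Stfa2l1 and Wfdc21), each as a percent of its neutrophil-like level in the same library. Leaving out the myeloid progenitor-like cells, S100a8 stood at 0.225% to 3.72% in 14 classes of MGJ (median 0.741%) and at 0.146% to 2.31% in 10 classes of MGJ2 (median 0.318%). S100a9 stood at 0.269% to 2.52% (median 0.724%) and at 0.200% to 2.68% (median 0.331%). In chondrocyte-like cells S100a8 and S100a9 were at 0.698% and 0.681% in MGJ, where the 11 genes ran from 0.388% to 1.81% (median 0.584%). The values in MGJ2 were 0.737% and 0.711%, with the 11 genes between 0% and 1.58% (median 0.535%). The level of S100a8 and S100a9 in cartilage cells thus lay within the range of the other neutrophil genes. It depended on the processing, from 0.164% to 0.866% for both genes summed in MGJ and from 0.0893% to 1.03% in MGJ2.

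**Figure D5:**
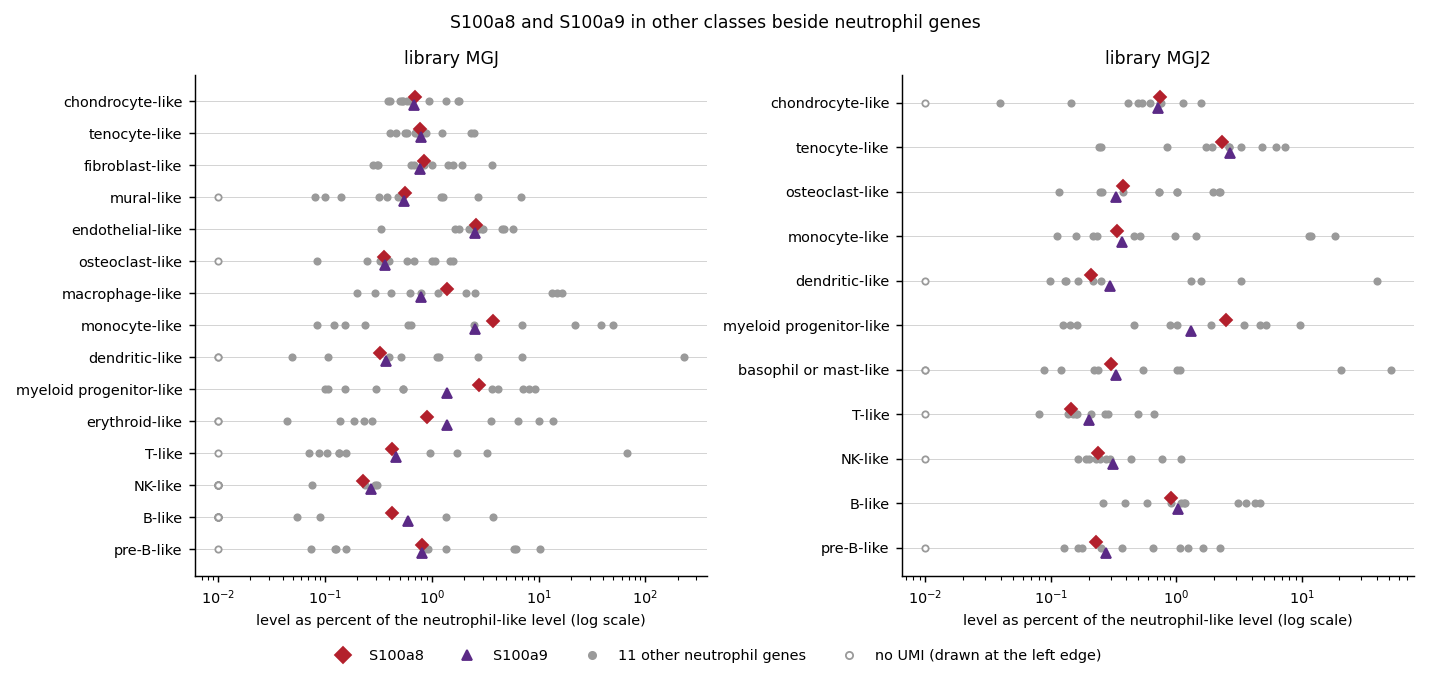
S100a8, S100a9 and 11 other neutrophil genes in the classes other than neutrophil-like cells, by library. The x axis is the level as a percent of the neutrophil-like level of the same library on a log scale, diamonds are S100a8, triangles are S100a9, grey circles are the other 11 genes, and open circles at the left edge had no UMI. S100a8 and S100a9 fell within the spread of the other genes in each class, a spread that some classes widen because they make 1 of those genes, and in MGJ the gap of S100a8 over S100a9 was widest in myeloid progenitor-like (2.75% against 1.40%), monocyte-like (3.72% against 2.52%) and macrophage-like cells (1.39% against 0.792%).

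Shares of cells with a UMI were counted after each cell was thinned to 2000 UMIs. S100a8 was detected in 23.5% (21.9% to 25.1%) of chondrocyte-like cells of MGJ and in 15.6% (9.89% to 22.8%) of those of MGJ2. In T-like cells of the same libraries it was detected in 29.5% (23.2% to 36.5%) and 23.3% (20.3% to 26.4%). Before thinning the shares were 83.2% and 83.5% in chondrocyte-like cells and 40.5% and 48.6% in T-like cells, whose median depths were 21245 and 29235 UMIs against 3026 and 5084. Per barcode, the median chondrocyte-like cell of MGJ held 2 S100a8 and 3 S100a9 UMIs, and the median T-like cell 0 and 1. Chondrocyte-like shares were thus no longer above T-like ones after thinning, which removes more of the UMIs of an RNA-rich cell. The thinned intervals of the 2 classes overlapped in each library. The part of free RNA in these shares was not tested. Macrophage-like cells of MGJ had a thinned share of 45.3% (42.8% to 47.8%) and an unthinned one of 78.2%, and its monocyte-like cells 41.1% (37.0% to 45.2%) and 66.8%.

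The ratio of S100a8 to S100a9 UMIs was also read in each class, and the part of free RNA in it was not tested. The ratio was 0.784 (0.782 to 0.786) in neutrophil-like cells of MGJ and 1.13 in those of MGJ2. Over the named neutrophil-like clusters it ran from 0.706 to 0.823 in MGJ and from 1.02 to 1.16 in MGJ2. Chondrocyte-like cells had 0.804 (0.793 to 0.814) and 1.17 (1.11 to 1.24), endothelial-like cells of MGJ 0.805, fibroblast-like cells of MGJ 0.871 (0.846 to 0.897), and tenocyte-like cells 0.770 (0.752 to 0.788) and 0.969. Macrophage-like cells of MGJ had 1.38 (1.35 to 1.41), with 1.72 in the cluster led by Pf4, Arg1 and C1qa and 0.892 in the cluster led by C1qb, Mmp19 and C1qa. Monocyte-like cells had 1.16 (1.13 to 1.19) and 1.03 (0.986 to 1.07), but this class held different clusters in the libraries. The cluster led by Dmkn, Hmox1 and Ly6c2 had 1.16 in 508 cells of MGJ and 1.21 (1.13 to 1.29) in 62 cells of MGJ2. In MGJ2 the cluster led by E230029C05Rik, Cd83 and Gm6377 (895 cells) had 0.895. The one led by Cd83, Cd74 and E230029C05Rik (703 cells) had 0.945. Myeloid progenitor-like cells, a cluster in which markers of basophils and plasmacytoid dendritic cells also led, had 1.55 (1.46 to 1.63) and 2.15 (2.08 to 2.22). In MGJ the chondrocyte-like, fibroblast-like, macrophage-like, monocyte-like and myeloid progenitor-like ratios lay above the pooled neutrophil-like ratio beyond counting error. The chondrocyte-like one lay within the range of the neutrophil-like clusters and the other 4 above that range. Erythroid-like cells of MGJ lay below the pooled ratio, at 0.510 (0.436 to 0.595). In MGJ2 the myeloid progenitor-like and osteoclast-like (1.27) ratios lay above the pooled neutrophil-like ratio beyond counting error. Its monocyte-like, B-like, tenocyte-like, pre-B-like, NK-like, T-like and dendritic-like ratios lay below, from 1.03 down to 0.798. In MGJ2 the richest osteoclast-like cell held 619 of 822 S100a8 UMIs, and the richest for S100a9 held 407 of 649. For chondrocyte-like cells these were 2393 of 2747 and 1910 of 2349. Without the 5 cells richest in each gene, S100a8 and S100a9 stood at 65.6 and 95.9 CPM in osteoclast-like cells of MGJ2. They stood at 67.4 and 87.6 CPM in its chondrocyte-like cells and at 1372 and 593 CPM in its myeloid progenitor-like cells. The level of S100a8 in MGJ was 3555 CPM in monocyte-like, 2632 CPM in myeloid progenitor-like and 1330.4 CPM in macrophage-like cells. The 5 richest cells held 43.7%, 52.3% and 12.2% of it in the same order. In MGJ2 S100a8 stood at 0.334% of the neutrophil-like level in monocyte-like cells and at 2.49% in myeloid progenitor-like cells. Over the monocyte-like clusters of MGJ2 it stood at 1459 CPM in the one led by Dmkn. The clusters led by E230029C05Rik and by Cd83 had 129 and 266 CPM.

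A few cells held much of the S100a8 outside neutrophils. In MGJ 29 chondrocyte-like cells held 48.5% of the 40623 S100a8 UMIs of the class, with up to 2409 UMIs in 1 cell. In MGJ2 the 5 richest cells held 90.4% of the 2747. The sub-cluster of 180 MGJ cells led by Ccl4, Il1b and Ccl3, with S100a9 and S100a8 among its 10 leading genes, had 4693 CPM of S100a8 and 5744 CPM of S100a9, or 4.91% and 4.71% of the neutrophil-like level. Its ratio of S100a8 to S100a9 was 0.817 and the 11 neutrophil genes stood at 2.37% to 11.6% in it (median 4.07%). It also had 46692 CPM of Col2a1. Without it, the chondrocyte-like cells of MGJ had 369.5 and 467 CPM, or 0.387% and 0.383%. Doublets called in MGJ were 1.04% of barcodes where the loading predicts 10.8%, and 2.84% against 6.24% in MGJ2, and the part of doublets in these cells was not tested.

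The genes that S100 proteins work with had their own cell ranges. Among 7 other S100 genes, 3 passed the minimum of 50 UMIs in MGJ and 2 in MGJ2. S100a3 was higher in chondrocyte-like cells in both, with 3.75 against 0.509 CPM (ratio 7.36) and 14.5 against 0.463 CPM (ratio 31.3). S100a16 had ratios of 1.73 and 33.6, at 105 and 114 CPM in chondrocyte-like cells. S100a7a had 1.40 against 0.537 CPM in MGJ. Of the 5 receptors, Bsg, the basigin that binds S100a9, was higher in chondrocyte-like cells of both libraries (ratios 3.30 and 4.70). Ager, Tlr4, Mcam and Cd36 were lower in both. In MGJ2 the chondrocyte-like cells held only 3 UMIs of Ager, 4 of Mcam and 1 of Cd36. Of all genes, 14% in MGJ and 19.8% in MGJ2 were higher by 2-fold in chondrocyte-like cells, and 26.3% and 32.9% lower. In neutrophil-like cells Tlr4, the calprotectin receptor, was higher with ratios of 5.69 and 5.65, as was Ager, the RAGE receptor, with 3.61 and 3.34 at 2.36 and 4.87 CPM. Bsg, Mcam and Cd36 were lower there in both libraries. Of all genes, 8.94% in MGJ and 8.05% in MGJ2 were higher by 2-fold in neutrophil-like cells, and 62.5% and 52.3% lower. In macrophage-like cells of MGJ, Cd36 was higher (ratio 15.3) and Bsg and Mcam were lower, against 12.7% and 35.7% of all genes.

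Of the 6 binding partners, none was higher in chondrocyte-like cells and Myh9, the myosin heavy chain bound by S100a4, was lower in both libraries (ratios 0.431 and 0.323). In neutrophil-like cells 62.5% of all genes in MGJ and 52.3% in MGJ2 were lower by 2-fold, so a lower partner is the common case there. Ahnak, a scaffold of the S100a10 and annexin A2 complex, had ratios of 0.107 and 0.0297, and S100a10 was also lower. Cacybp, the partner of S100a6, was lower in neutrophil-like cells too (0.280 and 0.310), and S100a6 was higher. Anxa2 had ratios of 0.446 and 0.508, and Anxa1, the partner of S100a11, of 1.54 and 4.12. Both cargo genes of S100a13 export were measured. Fgf1 was higher in chondrocyte-like cells, with 23.3 against 1.46 CPM in MGJ (95% interval of the ratio 13.1 to 19.8) and 91.6 against 0.834 CPM in MGJ2 (ratio 109.8, 80.5 to 153). Fgf1 went with S100a13 in the direction of hypertrophic-like cells, where its ratio to other chondrocyte-like cells was 5.00 and 6.49. Il1a was lower in chondrocyte-like cells (0.0471 and 0.0167) and had ratios of 4.59 and 1.45 in neutrophil-like cells.

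The genes most like each member were sought among 10126 genes by the Pearson correlation of log2(CPM + 10) over the 16 classes of MGJ and the 12 of MGJ2, ranked by the smaller of the 2 values. The points share their library, its depth and its free RNA, and the values are descriptions. For S100a8 the first gene was S100a9 (smaller r 0.980), followed by Wfdc21 (0.941) and Lcn2 (0.894). For S100b they were Dhx58os (0.978), Susd5 (0.978) and Chadl (0.972), and for S100a1 Chst11 (0.821), Pla2g4a (0.818) and Pltp (0.795). For S100a10 the first was Ahnak (0.844), for S100a4 Rgs10 (0.855), for S100a6 Fos (0.794), for S100a11 Tcn2 (0.825) and for S100a13 Zbtb38 (0.781). Among the members themselves S100a6 and S100a11 had r of 0.872 and 0.672, the head-to-head pair S100a1 and S100a13 0.390 and 0.728, and the neighbours S100a11 and S100a10 0.164 and -0.38.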

How the data were processed

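Single-cell RNA was measured in 2 libraries of callus. The authors deposited raw UMI counts per gene and barcode, the file headers naming Cell Ranger 4.0.0 and the submitters' processing notes GRCm38, with no normalization. Barcodes with fewer than 200 genes or over 20% mitochondrial UMIs were removed, 975 in MGJ and 425 in MGJ2 together with doublets called by Scrublet in scanpy 1.11.5 (expected rate 0.8% per 1000 barcodes). Counts were scaled to 10000 per cell and logged. Both libraries were clustered together on 2000 variable genes, S100 genes excluded, with 30 principal components, a shared-neighbour graph of 15 neighbours and Leiden (leidenalg 0.10.2, resolution 1, and 0.5 for sub-clusters of chondrocyte-like cells). Naming went by the best marker list, with a score of 1 as the minimum and 3 of its markers present in 10% of the cells. Depth relative to the cells' own library was also read: below 1/3 of its median, without a marker of the name among the 10 leading genes, no name was given. Of 28 named clusters 3 had no own marker among their leading genes (1674 monocyte-like and 53 chondrocyte-like cells).

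Levels are UMIs summed over a class per 1000000, ratios have exact conditional binomial 95% intervals and shares Clopper-Pearson 95% intervals, computed with Python 3.11.15, numpy 2.4.6 and scipy 1.17.1. They cover counting error only. Ratios were computed on all genes with at least 50 UMIs and counted at 2-fold. With no sample in a labelled group there was no test between samples. Ratios were checked on simulated counts, drawn as Poisson sums of a class without spread between cells. That check covers the arithmetic and counting error, and not genes whose UMIs lie in few cells. Shares between depths were thinned to 2000 UMIs.

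The members, marker lists and related gene lists were chosen with earlier results of these data known. The clustering was run in 4 configurations, and the one reported was chosen after clusters and member values had been seen. The other 3 are among the alternatives. The named genes were the members, the related, comparator and marker genes, and for each member the 3 genes most like it. Leading genes of clusters identify clusters. No table column was left unmapped. Some markers of the lists are not reported here.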

Additional observations from a re-analysis of the deposited data

Results flagged for a closer look

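The barcodes that the filters removed, 975 in MGJ and 425 in MGJ2, enter no comparison above. Each member with more UMIs in them than a count of 0 allows (3 counts, 0.811 CPM in MGJ and 0.992 CPM in MGJ2) is given here as a value. In MGJ the removed barcodes had 70.3 CPM of S100a1, 473 of S100a4, 1674 of S100a6, 7862 of S100a8, 9153 of S100a9, 1013 of S100a10, 779 of S100a11, 142 of S100a13 and 24.9 of S100b. The kept cells of MGJ had 125, 567, 2058, 8792, 11168, 1535, 1079, 215 and 45.0 CPM in the same order. In MGJ2 the removed barcodes had 16.5 CPM of S100a1, 894 of S100a4, 1972 of S100a6, 17616 of S100a8, 16828 of S100a9, 538 of S100a10, 1260.4 of S100a11 and 101 of S100a13, against 42.5, 984, 1678, 20493, 18108, 575, 1154 and 131 CPM in its kept cells. S100b had 2 UMIs in the removed barcodes of MGJ2, under the limit.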

How the results depend on the processing

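All 34 member ratios past 2-fold in the chondrocyte-like, neutrophil-like and macrophage-like comparisons stayed past 2-fold in the same direction under 17 alternatives. The counts of members there stayed within 1.5 times. Keeping set-aside sub-clusters, counted among the 17, could change nothing because no sub-cluster was set aside. Of the 11 not past 2-fold, 7 stayed so under all. Of the 5 hypertrophic-like calls, 2 were kept under all, both S100a13. With at least 500 genes per barcode MGJ2 gave no hypertrophic-like value. The alternatives on the neighbour graph, the random seed, the sub-cluster led by Ccl4 and the unnamed cells were chosen after seeing the data.

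Members past 2-fold upward in hypertrophic-like cells of MGJ went from 1 to 2 with doublet calls kept, with the fuzzy graph on scaled genes and with seed 0, and to 3 without the Ccl4 sub-cluster. Downward they went from 0 to 1 with at most 10% mitochondrial UMIs and to 2 with each cell named by its highest score or each library clustered alone. In MGJ2 those upward went from 3 to 1 with doublets kept, 10% mitochondrial UMIs, cells named by score, S100 genes among the variable genes, each library alone, the fuzzy graph on scaled genes and seed 0. Downward they went from 1 to 0 with doublets kept, resolution 0.5, cells named by score, the fuzzy graph with seed 0 and without the Ccl4 sub-cluster, and to 2 with each library alone.

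The MGJ2 hypertrophic-like ratios of S100a8 and S100a9 turned, to 0.745 and 0.993 with doublets kept, 0.631 and 0.756 with 10% mitochondrial UMIs, 0.538 and 0.725 by score, 0.746 and 0.952 with S100 genes variable, 0.373 and 0.438 with each library alone, 0.792 and 0.986 with the fuzzy graph and seed 0, 0.671 and 0.634 with scaled genes, and 0.752 and 0.985 with seed 0. The main ratios rest on 1 cell.

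The summed S100a8 and S100a9 level in chondrocyte-like cells, as a percent of the neutrophil-like level, moved in MGJ to 0.228% with doublets kept, 0.583% with 500 genes, 0.586% with 10% mitochondrial UMIs, 0.832% and 0.666% at resolutions 0.5 and 2, 0.866% with every cell weighted equally, 0.164% with S100 genes variable, 0.681% with each library alone, 0.864% with the low-UMI cluster named, 0.197%, 0.205% and 0.218% with the fuzzy graph and seed 0, scaled genes, and seed 0, and 0.385% without the Ccl4 sub-cluster. In MGJ2 it moved to 0.0895%, 0.697%, 0.104%, 0.681% and 0.680% under the first 5 of these, 0.0932% by score, 0.869% with cells weighted equally, 0.0931% with S100 genes variable, 1.03% with each library alone, and 0.0893%, 0.140% and 0.0927% with the fuzzy graph and seed 0, scaled genes, and seed 0. The cause was not tested. No paired analysis was possible because neither library has a group.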
